A study of Rattus norvegicus with 13 samples.

Results

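Epithelial junction, membrane protease and identity genes were followed across rat intrahepatic cholangiocarcinoma, its isolated cancer cells and its isolated fibroblasts. The set is a list of 37 gene symbols, and 36 of them, out of 14217 genes with a probe set of their own, were measured on the array. Ovol1 was the gene not represented. The tumours arose in young adult male Fischer 344 rats from BDEsp cells, which are cholangiocytes (bile duct epithelial cells) that became malignant spontaneously in culture and were placed into the bile duct. The epithelial line (clone H10, the cancer cells) and the fibroblastic line (clone E4, cancer-associated fibroblasts positive for smooth muscle actin) came from such tumours, and both were cultured inside a gel of type I collagen from rat tail. Each line is therefore a single clone. The groups were 4 tumour arrays (tumours 1 to 4 below), 3 arrays of the epithelial line alone, 4 arrays of the fibroblastic line alone, and 1 array for each line labelled as grown in co-culture with the other. No other treatment or engineered allele was named for any group. Values are log2 expression from Affymetrix rat arrays, on which 1 unit is a 2-fold step. Nothing in the labels shows that the arrays of a line came from separate cultures, or the tumour arrays from separate animals. The p-values therefore measure the spread between these arrays, which may be technical.

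Epithelial cells are held together by adherens junctions built on E-cadherin, by desmosomes that tie the intermediate filaments of neighbouring cells together, and by tight junctions, whose claudins and occludin seal the space between cells. Matriptase and prostasin are serine proteases at the epithelial surface that keep this barrier working, and the Kunitz-type inhibitors Spint1 and Spint2 hold them in check. In bile ducts the same machinery keeps bile away from the tissue around the duct. Zeb, Snail and Twist factors are textbook repressors of these genes, and Zeb and Snail proteins bind the E-box CACCTG.

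Both co-culture arrays held RNA of both lines. Krt19, a keratin of bile duct cells, was at 13.49 on the array labelled epithelial co-culture and at 13.21 on the array labelled fibroblastic co-culture, against a mean of 4.18 ± 0.12 (SD, n = 4) in the fibroblastic line alone. Col1a2, a chain of type I collagen, was at 13.37 and 13.60, against 4.27 ± 0.50 (SD, n = 3) in the epithelial line alone. The correlation between these arrays over all genes was 0.983. Neither was used below as an array of a pure line. The markers went with the other labels: Krt19 averaged 14.07 ± 0.17 (SD, n = 3) in epithelial arrays and Col1a2 at 14.27 ± 0.10 (SD, n = 4) in the fibroblastic line. The tumours held both, and also macrophage markers, with a summed level of 14.77 to 15.09 on the log2 scale against 9.37 to 11.56 in the lines alone.

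Of the 36 genes, 24 had a promoter in the RefSeq table (assembly GRCr8), taken as 250 bases before to 50 bases after the gene's start. Cdh1, Cldn2, Cldn4, Cxadr, Pkp2, Pkp3, Evpl, St14, Prss8, Prss22, Ehf and Esrp1 had none there and were not searched. The shares below therefore describe the 24 genes and not the whole set. The E-box CACCTG, on either strand, was present in 20 of the 24 (83.3%). It was present in 18.8% of all 33469 promoters of that length and in 18.9% of the 13243 promoters of measured genes. Among 295 promoters of other genes over 8-fold higher in the epithelial than in the fibroblastic line the share was 40.7%, and among 443 promoters of genes over 8-fold lower it was 12.2%. It was 36.8% in the 57 promoters of other epithelial genes listed for comparison, and 8 of the 24 genes held several matches. The E-box was missing from the windows of Tjp1, Cgn, Cldn1 and Myo5b. The motif AACNGGTT, known for grainyhead-like factors, was in 3 of 24 (12.5%) against 2.1% of all promoters, in Cgn, Rab25 and Tjp1. The motif CCGGAA, known for Ets factors such as Ehf and Elf3, was in 3 of 24 (12.5%) against 15% of all promoters, 23% of the promoters of measured genes and 7.02% of the other epithelial genes listed. All 3 were searched on both strands, and 0 matches of one motif overlapped a match of another. These counts describe letters in a window and carry no test. The 250 bases before the start are printed for 6 genes that range from several E-boxes to none, in lower case with each E-box in capitals, 5′ to 3′ on the gene's strand. Apart from Epcam, they were picked after the matches were seen. Epcam lies on the minus strand at chr6:12649679-12649928, Cldn7 on the plus strand at chr10:55188420-55188669, Rab25 on the minus strand at chr2:176304222-176304471, Spint2 on the minus strand at chr1:93708092-93708341, Ap1m2 on the minus strand at chr8:28132643-28132892 and Tjp1 on the minus strand at chr1:128325361-128325610.
Epcam: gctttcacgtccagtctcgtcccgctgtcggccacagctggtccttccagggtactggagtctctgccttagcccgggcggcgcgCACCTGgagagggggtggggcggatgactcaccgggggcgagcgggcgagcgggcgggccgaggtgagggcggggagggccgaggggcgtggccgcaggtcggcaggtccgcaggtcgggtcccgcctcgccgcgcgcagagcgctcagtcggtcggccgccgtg
Cldn7: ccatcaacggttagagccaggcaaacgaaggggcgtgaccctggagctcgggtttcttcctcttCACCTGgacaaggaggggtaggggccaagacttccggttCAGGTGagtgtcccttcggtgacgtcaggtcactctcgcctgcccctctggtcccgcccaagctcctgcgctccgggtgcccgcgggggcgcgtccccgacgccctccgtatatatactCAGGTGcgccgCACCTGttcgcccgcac
Rab25: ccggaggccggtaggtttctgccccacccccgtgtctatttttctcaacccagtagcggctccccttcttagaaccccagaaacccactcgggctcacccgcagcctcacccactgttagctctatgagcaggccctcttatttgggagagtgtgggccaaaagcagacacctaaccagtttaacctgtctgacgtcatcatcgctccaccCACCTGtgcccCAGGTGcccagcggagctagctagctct
Spint2: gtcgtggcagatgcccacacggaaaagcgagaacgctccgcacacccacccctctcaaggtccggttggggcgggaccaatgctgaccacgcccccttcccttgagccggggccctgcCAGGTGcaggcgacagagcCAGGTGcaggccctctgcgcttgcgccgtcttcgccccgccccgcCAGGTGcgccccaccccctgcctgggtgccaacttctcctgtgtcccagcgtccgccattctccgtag
Ap1m2: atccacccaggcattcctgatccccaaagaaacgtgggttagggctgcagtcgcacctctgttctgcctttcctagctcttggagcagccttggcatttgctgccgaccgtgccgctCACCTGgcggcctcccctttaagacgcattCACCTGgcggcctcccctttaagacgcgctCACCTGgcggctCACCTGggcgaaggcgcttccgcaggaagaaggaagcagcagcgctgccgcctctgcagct
Tjp1: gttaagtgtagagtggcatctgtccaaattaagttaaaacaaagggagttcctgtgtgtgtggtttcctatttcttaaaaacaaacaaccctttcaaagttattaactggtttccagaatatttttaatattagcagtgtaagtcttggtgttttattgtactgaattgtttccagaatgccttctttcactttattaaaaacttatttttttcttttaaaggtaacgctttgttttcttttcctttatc
In these windows the E-box occurred once in Epcam, at 165 bases before the start. It occurred 4 times in Cldn7 and 4 times in Ap1m2, 3 times in Spint2 and 2 times in Rab25. Tjp1 had none.

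**Figure D1:**
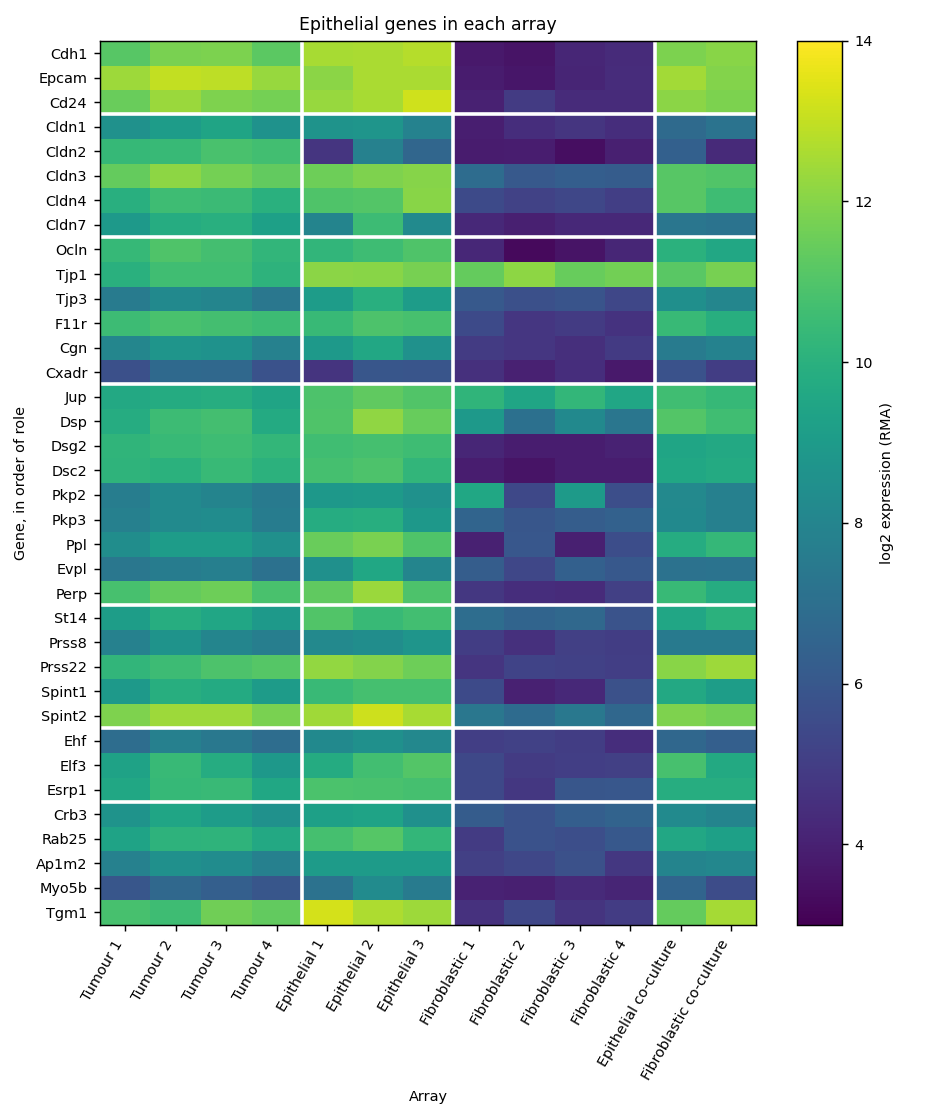
Log2 expression of the 36 genes (rows, ordered by role, white lines between roles) on the 13 arrays (columns, white lines between groups). The fibroblastic arrays are dark in most rows, apart from Tjp1 and Jup, and Pkp2 is high on fibroblastic arrays 1 and 3 and low on arrays 2 and 4.

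The lines grown alone were compared first, to ask which of these genes separate the cancer cells from the fibroblasts of the same tumours. In limma with Benjamini-Hochberg adjustment over all genes, 34 of the 36 genes were higher in the epithelial line at adjusted p under 0.05 and 0 were lower, where 20.9% of all genes were higher and 16.6% lower. The median log2 difference was 4.93 over the set and 0.11 over all genes. The genes were chosen as epithelial, with earlier results of these data known. All 36 differences were positive, from 0.30 to 8.68. In the fibroblastic line 23 of the 36 means lay in the lowest 25% of all values, under 5.45, where low and absent signal are hard to tell apart. The largest folds below rest on such values and depend on the array's lower end.

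The surface molecules stood furthest apart. Cdh1, which encodes E-cadherin, was at 12.55, 12.60 and 12.78 in the epithelial line and at 3.76, 3.58, 4.17 and 4.35 in the fibroblastic line. The log2 difference was 8.68 ± 0.21 (SE, adjusted p = 7.69e-08 in limma). A second Cdh1 probe set read between 3.45 and 3.73 in the means of the tumours and of both lines and differed by 0.26 between the lines, so the mean of both gave 4.47, still called. Epcam, an adhesion molecule used as a carcinoma marker, differed by 8.44 ± 0.22, and the surface glycoprotein Cd24 by 8.27 ± 0.27. Each of the 3 was lower in every fibroblastic array than in any epithelial array.

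All 5 claudins were higher in the epithelial line, by unequal amounts. Cldn4 and Cldn3, which are neighbours on the chromosome with no protein-coding gene between them, differed by 6.08 ± 0.27 and 5.45 ± 0.22. Cldn7 differed by 4.72 ± 0.55 and Cldn1 by 4.06 ± 0.26. The least regular was Cldn2, a claudin that forms pores for cations, at 4.71, 7.84 and 6.62 in the epithelial line and between 3.39 and 3.97 in the fibroblastic line. Its difference of 2.62 ± 0.63 was called (adjusted p = 0.0127 in limma) and did not pass a limit of 0.01.

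Among the other tight junction genes, the membrane proteins Ocln (occludin) and F11r (the junctional adhesion molecule JAM-A) differed by 6.78 ± 0.29 and 5.76 ± 0.24. The cytoplasmic plaque proteins Cgn (cingulin) and Tjp3 (ZO-3) differed by 4.27 ± 0.25 and 3.61 ± 0.27. Tjp1, which encodes the scaffold ZO-1 found in many cell types, was the exception. It stood at 12.10, 12.04 and 11.75 in the epithelial line and at 11.39, 12.15, 11.46 and 11.64 in the fibroblastic line, and the groups overlapped (difference 0.30 ± 0.21, adjusted p = 0.301 in limma). With the mean of its 2 probe sets, of which the other read near the bottom of the scale, the difference was 0.56 and was called (adjusted p = 0.0227 in limma). Cxadr, an immunoglobulin-like protein of the tight junction that also serves as a virus receptor, was low in both lines, at 4.66 to 5.93 against 3.74 to 4.51. Its difference of 1.33 ± 0.35 (adjusted p = 0.019 in limma) was no longer called without epithelial array 2 or without epithelial array 3, where the adjusted p was up to 0.073.

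Desmosome genes separated the lines by very different amounts. The desmosomal cadherins Dsc2 and Dsg2 differed by 6.81 ± 0.20 and 6.65 ± 0.14, and Perp, a membrane protein of desmosomes, by 6.85 ± 0.34. Ppl, or periplakin, a plakin of the cornified envelope and of desmosomes, differed by 6.53 ± 0.54. Other plaque proteins differed less, with Dsp (desmoplakin) at 3.65 ± 0.48 (1.99 with the mean of its 2 probe sets), Pkp3 (plakophilin 3) at 3.26 ± 0.28 and Evpl (envoplakin) at 2.71 ± 0.39. Jup, or plakoglobin, which works in both desmosomes and adherens junctions, differed by 1.23 ± 0.25. It stood at 10.93, 11.33 and 11 in the epithelial line and at 10.18, 9.45, 10.28 and 9.50 in the fibroblastic line, and no array of one line reached the other. Pkp2 (plakophilin 2), which is also found outside epithelia, was not called (1.41 ± 1.03, adjusted p = 0.327 in limma).

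Pkp2 was the gene of the set that varied most within a group. It stood at 9.54 and 8.98 on fibroblastic arrays 1 and 3 and at 5.40 and 5.63 on arrays 2 and 4, against 8.85, 8.98 and 8.55 in the epithelial line. Fibroblastic arrays 1 and 3 thus matched the epithelial line or exceeded it, and arrays 2 and 4 were far below it. Without arrays 2 and 4 the difference between the lines was -0.47 (adjusted p = 0.187), and without arrays 1 and 3 it was 3.28 (adjusted p = 3.27e-05, both in limma). Dsp followed the same order, with 8.95 and 8.24 on arrays 1 and 3 and 7.06 and 7.31 on arrays 2 and 4, and so did Jup. At any gap, this order held for 12 of the 36 genes (33.3%), near the 32.5% of all genes. Ppl went the other way, at 3.99 and 3.96 on arrays 1 and 3 and 6.0 and 5.59 on arrays 2 and 4. At any gap, that reverse order held for 6 genes (16.7%) and for 27.3% of all genes. Arrays 1 and 3 were both above arrays 2 and 4 by more than 1 log2 unit for 1 of 36 genes (2.78%) and for 2.17% of all genes, and below them by as much for 1 gene (2.78%) and 2.77% of all genes. Over all genes, arrays 1 and 3 correlated at 0.987 and arrays 2 and 4 at 0.99, against 0.947 to 0.961 across these pairs. The split was thus not particular to these genes. The fibroblastic arrays may therefore not be 4 independent ones, which the SDs and limma's SEs take them to be. The 3′ minus 5′ signal of the actin control probe sets, a sign of RNA quality, was 1.72 and 1.05 on arrays 1 and 3 and 2.65 and 2.01 on arrays 2 and 4. For the GAPDH control it was 0.15 and -0.04 on arrays 1 and 3 and 0.27 and 0.15 on arrays 2 and 4. The part of RNA quality in the Pkp2 values was not tested.

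**Figure D2:**
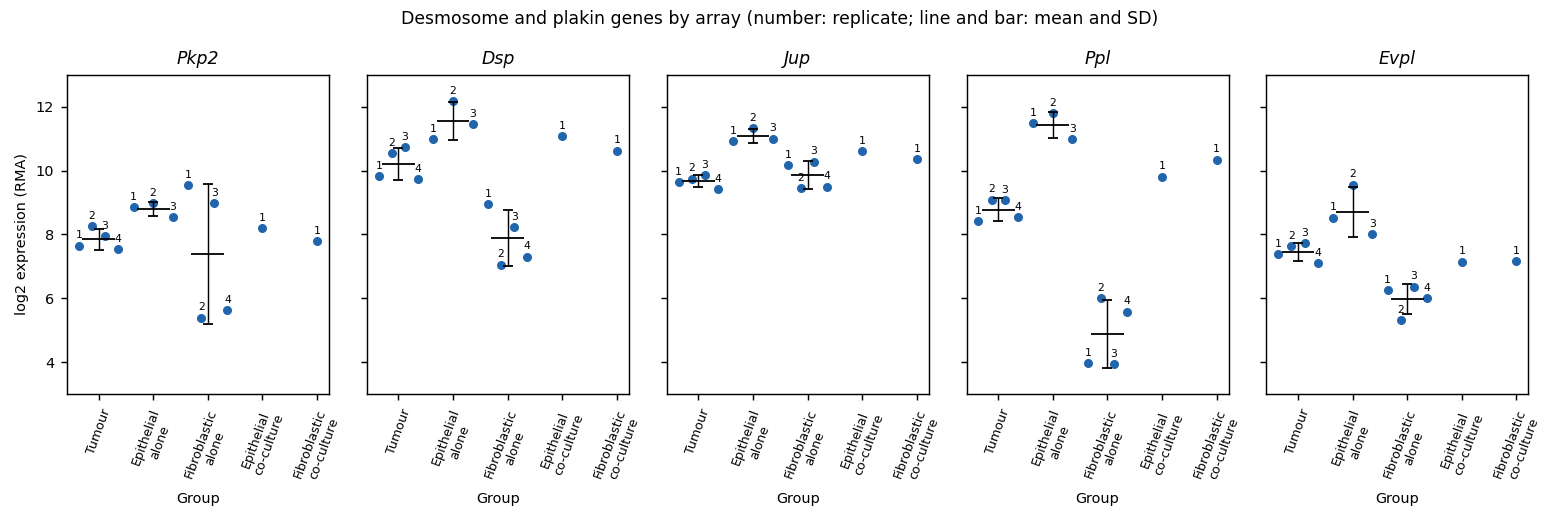
Log2 expression of 5 desmosome and plakin genes on each array, with the replicate number above each point and the mean and SD of groups with over 1 array. Pkp2 spans 5.40 to 9.54 in the fibroblastic line, Ppl is near 4 or near 6 there, and in every panel the tumours lie below the epithelial arrays.

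The proteases and their inhibitors were all higher in the epithelial line. Prss22, a tryptase-like serine protease, was at 12.23, 11.97 and 11.56 against 4.71, 5.23, 5.14 and 5.04, a difference of 6.89 ± 0.20 (adjusted p = 1.85e-07 in limma). St14 (matriptase) and Prss8 (prostasin) differed by 4.19 ± 0.29 and 3.53 ± 0.20, and the inhibitors Spint1 and Spint2 by 5.79 ± 0.43 and 5.65 ± 0.26. Enzymes and inhibitors were thus higher in the same line. The Ets-family factors Elf3 and Ehf differed by 5.38 ± 0.29 and 3.39 ± 0.20, and the splicing regulator Esrp1, which sets epithelial exon choice, by 5.30 ± 0.29.

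The genes for polarity and trafficking were also higher in the epithelial line. Rab25 and Myo5b, a small GTPase and a motor of apical recycling, differed by 5.13 ± 0.30 and 3.55 ± 0.26. Ap1m2, an adaptor subunit that sorts cargo to the basolateral membrane, differed by 3.80 ± 0.22, and the polarity protein Crb3 by 2.87 ± 0.25. Tgm1, the transglutaminase that crosslinks the cornified envelope of stratified epithelia, was at 13.28, 12.65 and 12.40 in the epithelial line and at 4.56 to 5.36 in the fibroblastic line. It differed by 7.89 ± 0.27 (adjusted p = 3.53e-07 in limma).

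Related genes outside the set divided less sharply between the lines. The set and the lists were chosen with earlier results of these data known, so this contrast describes the choice and carries no test. Of 28 other junction and polarity genes, 17 were higher and 3 lower in the epithelial line, led by Cldn18 (7.27 ± 0.18), Lsr (6.0 ± 0.17) and Pard6b (5.60 ± 0.24). Of 10 other proteases, inhibitors and their targets, 4 were higher and 1 lower, led by Serpinb1a (5.71 ± 0.46) and the protease gene Tmprss2 (5.48 ± 0.42). Of 15 other epithelial transcription and splicing factors, 7 were higher and 0 lower, led by Grhl3 (5.93 ± 0.20), and of 18 other trafficking and envelope genes, 7 and 0, led by the myosin Myh14 (4.60 ± 0.53). The 7 measured repressors of junction genes were all lower in the epithelial line, with a median of -3.88. Prrx1 differed by -6.66 ± 0.18, Zeb2 by -4.66 ± 0.38 and Twist1 by -4.49 ± 0.15. Zeb1 was at 6.54 to 6.66 in the epithelial line and at 9.02 to 9.44 in the fibroblastic line.

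**Figure D3:**
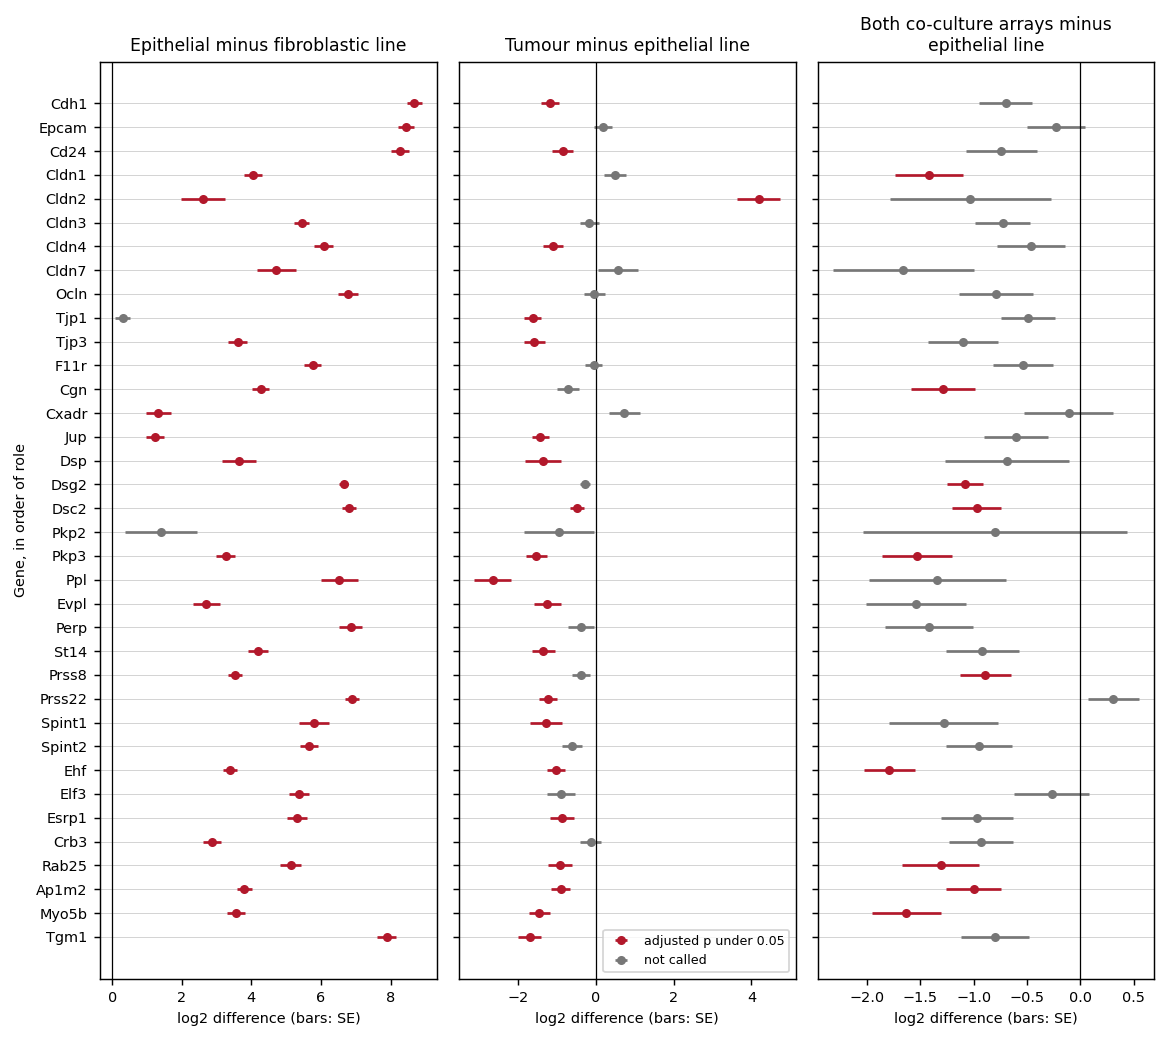
Log2 differences with SE for the 36 genes in 3 comparisons, red where adjusted p was under 0.05 in limma and grey where it was not. The horizontal scales differ: the lines differ by up to 8.68, and the tumours differ from the epithelial line by -2.64 to 4.19.

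Tumour tissue was next set against the epithelial line, to see how much of this machinery the cancer cells' tissue showed. In limma 20 of the 36 genes were lower in the tumours and 1 was higher, where 33.2% of all genes were lower and 18.9% higher, and 15 genes were not called. The median difference was -0.90, against -0.17 over all genes. The tumours hold other cell types, and in bulk tissue fewer epithelial cells and less RNA per epithelial cell cannot be told apart. All 14 fibroblast markers were higher in the tumours, and of 7 bile duct markers outside the set 2 were lower and 1 higher, with a median of -0.34. The 3′ minus 5′ signal of the actin control probe sets was 0.61 to 0.75 in the tumours and 0.86 to 1.47 in the epithelial arrays, with no overlap. The GAPDH control probe sets went the other way. Their 3′ minus 5′ signal was -0.08, -0.05, -0.07 and -0.0 in tumours 1 to 4, above the -0.14, -0.11 and -0.1 of the epithelial arrays. The parts of the other cells and of RNA quality in the differences were not tested. The count moved with the scaling. It was 12 after a further quantile normalization, where 22.6% of all genes were lower and the median of all genes moved by 0.10, and 24 after centring on the median. Leaving out tumours 1 and 4 gave 10, and tumour 2 as the only tumour gave 3, namely Tjp1, Prss22 and Tgm1. Fewer arrays make fewer calls: the median difference over the 20 genes was -1.25 with all tumours, -0.97 without tumours 1 and 4 and -0.92 with tumour 2 alone, and all 20 stayed negative.

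Cldn2 was the gene that rose, and it rose above every epithelial array. The tumours stood at 10.37, 10.43, 10.85 and 10.69, against 4.71, 7.84 and 6.62 in the epithelial line, and no array overlapped. The difference was 4.19 ± 0.55 (18.3-fold, adjusted p = 1.75e-04 in limma), and the call held in every alternative run, tumour 2 as the only tumour included (4.04, adjusted p = 0.0292 in limma). Fibroblastic arrays read 3.39 to 3.97 and the co-culture arrays 6.39 and 4.33. The SD over the 4 tumour values was 0.22.

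The other claudins did not move together. Cldn4 fell by 1.09 ± 0.26 on the log2 scale (adjusted p = 0.0062 in limma), from 10.95, 11.05 and 12.03 to 9.95, 10.58, 10.49 and 10. Its neighbour Cldn3 was at 11.58, 11.87 and 11.99 in the line and at 11.40, 12.14, 11.72 and 11.35 in the tumours, a difference of -0.16 ± 0.24 that was not called. Cldn1 differed by 0.49 ± 0.28 and Cldn7 by 0.57 ± 0.51, both not called. For Cldn1 the other 2 probe sets gave 0.85 and 1.90, and the mean over its probe sets was called at 1.08 (adjusted p = 0.00123 in limma). Cldn7 rested on 1 array: epithelial array 2 read 10.52 and the other two 7.96 and 8.27, and without array 2 the difference was 1.37 (adjusted p = 0.00297 in limma).

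**Figure D4:**
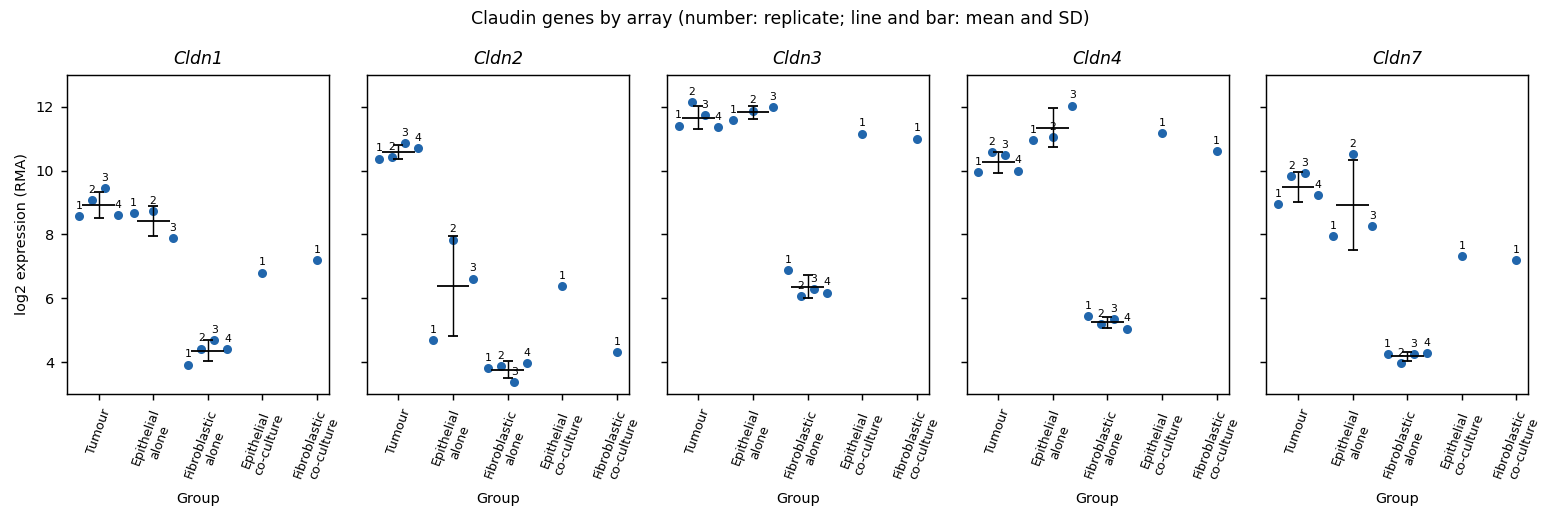
Log2 expression of the 5 claudin genes on each array, with the replicate number above each point and the mean and SD of groups with over 1 array. Cldn2 in the tumours, at 10.37 to 10.85, lies above all other groups, and Cldn1 and Cldn7 on both co-culture arrays lie below the epithelial arrays.

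Several junction membrane proteins stood near the epithelial line's level in the tumours. Epcam was at 12.41, 13.01, 12.90 and 12.30 in the tumours and at 12.10, 12.62 and 12.62 in the line (0.20 ± 0.23, not called). Ocln differed by -0.03 ± 0.28, F11r by -0.05 ± 0.21 and Dsg2 by -0.28 ± 0.13. None of these passed the test, which does not show that they were equal. Cxadr differed by more, at 0.74 ± 0.39, and was not called. It was called higher with the replicate number as a block (0.89, adjusted p = 0.0476) and without tumours 1 and 4 (1.25, adjusted p = 0.0413, both in limma). Cdh1 was lower, at 11.13, 11.78, 11.82 and 11.21 (-1.16 ± 0.23, adjusted p = 0.00197 in limma), and so was Cd24 (-0.85 ± 0.28), although its arrays overlapped. Crb3 differed by -0.12 ± 0.27 with the probe set used and by -0.65 to -0.69 with its other 3.

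Of the 9 desmosome and plakin genes 6 were lower (66.7%), and of the 6 other tight junction genes 2 (33.3%), against 33.2% of all genes. The roles are small, so these shares are not set against each other. Among the 6 desmosome calls, those of Dsp, Dsc2 and Evpl each ended when a single array was left out. Ppl fell most, from 11.47, 11.80 and 10.99 to 8.41, 9.09, 9.08 and 8.54, a difference of -2.64 ± 0.48 (adjusted p = 0.00127 in limma). Tjp1 fell from 12.10, 12.04 and 11.75 to 10, 10.64, 10.64 and 10.09 (-1.62 ± 0.23, adjusted p = 2.53e-04 in limma). Tjp3 differed by -1.57 ± 0.28, Pkp3 by -1.52 ± 0.27, Jup by -1.42 ± 0.22, Dsp by -1.34 ± 0.46 and Evpl by -1.24 ± 0.35. The tumours and the epithelial line did not overlap for any of these 7 genes. The share of all genes without overlap was not counted, so this adds no support to the calls. Cgn, at -0.71 ± 0.28, missed the threshold (adjusted p = 0.0536 in limma), and Pkp2 (-0.94 ± 0.90) and Perp (-0.37 ± 0.33) were not called. Dsc2 was called at -0.47 ± 0.18, with overlapping arrays, and its call ended when any 1 of 8 of the 11 arrays was left out.

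Of the proteases and inhibitors, St14 (-1.34 ± 0.29), Spint1 (-1.27 ± 0.41) and Prss22 (-1.22 ± 0.23) were lower in the tumours. Prss8 (-0.38 ± 0.23) and Spint2 (-0.61 ± 0.26) were not called. Ehf (-1.02 ± 0.23) and Esrp1 (-0.86 ± 0.31) were lower, and Elf3 (-0.89 ± 0.37) missed the threshold (adjusted p = 0.0626 in limma). Tgm1 fell by 1.69 ± 0.30, Myo5b by 1.45 ± 0.27, Rab25 by 0.91 ± 0.30 and Ap1m2 by 0.90 ± 0.24 on the log2 scale. In the remaining roles 4 of 5 polarity and trafficking genes, 3 of 5 protease genes, 2 of 3 adhesion molecules, 2 of 3 transcription and splicing factors and 1 of 5 claudins were lower. With so few genes in a role, these counts are not set against each other. The 20 calls were not equally firm: 10 of the 20 held in every alternative except tumour 2 alone (Cdh1, Tjp1, Tjp3, Jup, Pkp3, Ppl, St14, Prss22, Myo5b and Tgm1). The calls of Cd24, Dsp, Spint1, Esrp1 and Rab25 each ended without tumour 1, without tumour 4 and without at least 1 epithelial array, and that of Esrp1 also without fibroblastic array 1. Their differences stayed between -0.60 and -1.61 with any 1 array left out. The call of Evpl ended without epithelial array 2 (adjusted p = 0.0523 in limma).

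Related genes outside the set went in unequal directions in this comparison. Of the 28 other junction genes 17 were lower (60.7%, against 33.2% of all genes) and 4 higher in the tumours, with Pkp1 at -2.25 ± 0.47, Pard6b at -2.07 ± 0.25 and Llgl2 at -1.94 ± 0.21. Of the 10 other protease genes 3 were higher and 0 lower: Prss23 (5.10 ± 0.41), Hgfac (2.31 ± 0.64) and Hpn (2.16 ± 0.67). Hgfac and Hpn are also products of hepatocytes. Of the 15 other identity factors 5 were lower (33.3%), among them Grhl3 (-2.10 ± 0.22), and 2 higher. Of the 18 other trafficking and envelope genes 7 were lower (38.9%), among them Sprr1a (-2.74 ± 0.39), and 3 higher. The shares lower in these last lists were near that of all genes. Of the 7 repressors 6 were higher, led by Zeb2 (4.59 ± 0.33), which macrophages and fibroblasts also express.

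Against the fibroblastic line, a comparison that shares the tumour arrays with the one above, 33 of the 36 genes were higher in the tumours and 1 was lower, where 27.3% of all genes were higher and 33.5% lower. The median difference was 4.47, against -0.07 over all genes. The gene that fell was Tjp1 (-1.32 ± 0.21, adjusted p = 3.27e-04 in limma): its tumour values lay below both lines, with no overlap on either side. With the mean of its 2 probe sets this call ended. Jup (-0.18 ± 0.21) and Pkp2 (0.47 ± 0.84) were not called. For Pkp2 the difference was -1.41 (adjusted p = 0.00151) without fibroblastic arrays 2 and 4 and 2.34 (adjusted p = 3.79e-05) without arrays 1 and 3, both in limma. The largest differences were those of Epcam (8.65 ± 0.22), Cdh1 (7.52 ± 0.21) and Cd24 (7.42 ± 0.26), and Cldn2 reached 6.82 ± 0.51.

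Within the tumours the genes shared an order. In the planned contrast, tumour 2 minus the mean of tumours 1, 3 and 4, the median was 0.45 log2 units, against 0.05 over all genes. In a split that was not planned, tumours 2 and 3 were both above tumours 1 and 4 for 32 of the 36 genes (88.9%). This held for 34.4% of all genes. It held for 16 of the 28 other junction genes (57.1%), 12 of the 18 other trafficking and envelope genes (66.7%) and 5 of the 7 bile duct markers (71.4%). It also held for 9 of the 15 other identity factors (60%). Among the 10 other protease genes it held for 3 (30%), below the share of all genes. The highest value was in tumour 2 for 21 genes and in tumour 3 for 14, and the lowest in tumour 1 for 15 and in tumour 4 for 19. The exceptions were Prss22, highest in tumour 4 at 11.10, Dsc2 and Tgm1, lowest in tumour 2 at 10.01 and 10.57, and Cldn2, higher in tumour 4 than in tumour 2. The steps were small, with a median range over the 4 tumours of 0.77 log2 units, against 0.39 over all genes. The range was similar in the lists of related genes, at 0.7 to 0.81, and in the bile duct markers, at 0.79. Hepatocyte markers ran in another order. Their summed level was 17.44, 13.42, 16.27 and 17.50 in tumours 1 to 4, and 18 of 19 were lowest in tumour 2. Alb, which encodes albumin, was at 14.51, 7.50, 13.94 and 14.46, and Fga, a fibrinogen chain, at 4.39 in tumour 2, near its 3.59 to 4.04 in the lines alone. Tumours 1 and 4, with the most hepatocyte marker signal, thus had the least signal for the junction genes, and the part of hepatocyte RNA in the junction values was not tested.

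The co-culture arrays were compared with each line alone, with a single array on one side whose spread was taken from the replicated groups. For the array labelled epithelial co-culture, 2 of 36 genes were lower than in the epithelial line and 0 were higher, where 2.37% of all genes were lower and 4.87% higher (limma). At an unadjusted p under 0.05 there were 15 genes (41.7%), and 22.5% of all genes. The 2 genes were Ehf (-1.62 ± 0.31, adjusted p = 0.0185) and the desmosomal cadherin Dsg2 (-1.18 ± 0.22, adjusted p = 0.0169, both in limma), neither called at 0.01. Without epithelial array 3 there were 6 lower genes. For the array labelled fibroblastic co-culture, 26 genes were higher than in the fibroblastic line and 0 lower, where 4.78% of all genes were higher and 3.63% lower. Cdh1 was at 12.03 there, against 3.58 to 4.35 in the fibroblastic line alone, beside the Krt19 signal given above. The responses of the 2 labels differed for 28 genes, all with the lower response in the array labelled epithelial, where 3.76% of all genes went that way and 4.66% the other. Since that array pair held both lines, these last counts compare a mixture with pure lines. The difference of responses is the difference between the co-culture arrays minus that between the lines, and with co-culture arrays so alike it largely restates the latter with its sign turned (-8.86 for Cdh1, against 8.68 between the lines).

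A comparison added after this was seen took both co-culture arrays together against the epithelial line. In limma 10 genes were lower and 0 higher, where 7.36% of all genes were lower and 7.97% higher, and 22 of 36 (61.1%) had an unadjusted p under 0.05, as had 29.5% of all genes. Ehf was at 6.67 and 6.33 on the co-culture arrays and at 8.23, 8.50 and 8.15 in the line (-1.79 ± 0.24, adjusted p = 0.00232 in limma). The others were Myo5b, Pkp3, Cldn1, Rab25, Cgn, Dsg2, Ap1m2, Dsc2 and Prss8, between -1.63 and -0.89. With any 1 of the 9 arrays left out, 2 to 11 were called, and 2 of the 10, Dsg2 and Ehf, held in every alternative. The count was 4 without epithelial array 1, 5 without epithelial array 2, 4 without the array labelled epithelial co-culture and 2 without the array labelled fibroblastic co-culture. Elf3, an Ets factor like Ehf, was not called (-0.27 ± 0.35), and Prss22 was at 12.05 and 12.40, at or above the epithelial line (0.31 ± 0.24, not called). The 7 repressors were all higher on these arrays than in the epithelial line, and the fibroblast markers summed to 15.84 and 15.86 against 9.54 to 9.85. The part of fibroblast RNA in the lower values was not tested.

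Tumours were set against the co-culture arrays in a second added comparison, since both hold the 2 lineages. The tumours also held other cells. Higher there were 17 of 19 hepatocyte, 10 of 12 macrophage, 9 of 11 lymphocyte and 8 of 9 endothelial markers, and 0 of these were lower. The part of those cells in the differences below was not tested. In limma 5 genes were higher in the tumours and 3 lower, where 11.7% of all genes were higher and 21% lower. Higher calls made up 35.8% of all genes called, and 46.1% after a further quantile normalization. The higher genes were Cldn2 (5.23 ± 0.62, adjusted p = 1.54e-04 in limma), Cldn7 (2.23 ± 0.58), Cldn1 (1.91 ± 0.32), Dsg2 (0.81 ± 0.15) and Ehf (0.77 ± 0.27), so 3 of the 5 were claudins. Cldn3 (0.57 ± 0.27) and Cldn4 (-0.63 ± 0.30) were not called. Lower in the tumours were Prss22 (-1.53 ± 0.26, adjusted p = 0.00155 in limma), Tjp1 (-1.13 ± 0.26) and Jup (-0.82 ± 0.26). Cldn1, Cldn2 and Prss22 were called in every alternative. Without either co-culture array 3 genes were higher, Cldn7 and Ehf no longer among them. Without the array labelled fibroblastic 1 gene was lower, the calls of Tjp1 and Jup having ended. Jup was also not called without tumour 1, without tumour 4 or without the array labelled epithelial. The call of Ehf ended when any 1 of 10 of the 13 arrays was left out.

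Each array was also placed between the lines, gene by gene, as a percent on the linear scale, with the fibroblastic mean at 0 and the epithelial mean at 100. This was done for the 29 genes that were called and over 8-fold higher in the epithelial line. It is a description with no test. The same epithelial arrays chose the genes and set the 100% mark. Cldn2, Cxadr, Tjp1, Jup, Pkp2, Evpl and Crb3 were left out by this choice, so the medians do not cover them. The medians over the 29 genes were 40.1, 67, 60.1 and 39.2% in tumours 1 to 4, and 47.2 and 48.3% on the co-culture arrays labelled epithelial and fibroblastic. Krt19, which is outside the set, stood at 55.6, 82.8, 75.9 and 44.8% in the tumours and at 66.8 and 54.7% in co-culture. The genes spread widely around these medians. Cldn1 stood at 108, 154, 200 and 109% in the tumours and at 27.2 and 37.8% in co-culture. Cldn7 stood at 73, 135, 146 and 89.1%, against 21.5 and 19.6%. Both claudins were thus above the tumours' medians and below the medians of the co-culture arrays. For Cldn7 the 100% mark rests largely on epithelial array 2, at 10.52 against 7.96 and 8.27 on the others. Cldn7 read 7.32 and 7.2 on the co-culture arrays (all log2), and its position was not computed without array 2. For Cldn1, both co-culture arrays differed from the epithelial line by -1.42 with the probe set used and by -0.61 with that of largest variance. Prss22 lay below the median in tumours 1 to 3, above it in tumour 4 and above the medians of both co-culture arrays, at 30, 36.9, 48.9 and 55.4% in the tumours and at 108 and 138% in co-culture. Ppl was lowest in the tumours, at 11, 18.4, 18.3 and 12.1%, against 31 and 45.5%. Tgm1 stood at 24.2, 20.6, 43.4 and 35.9%, against 37.2 and 81.7%, and Epcam at 96, 145, 134 and 88.9%, against 100 and 70.3%. On the neighbouring claudin genes, Cldn3 stood at 74, 125, 93 and 71.6% in the tumours and Cldn4 at 35, 54.7, 51.4 and 36.2%.

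**Figure D5:**
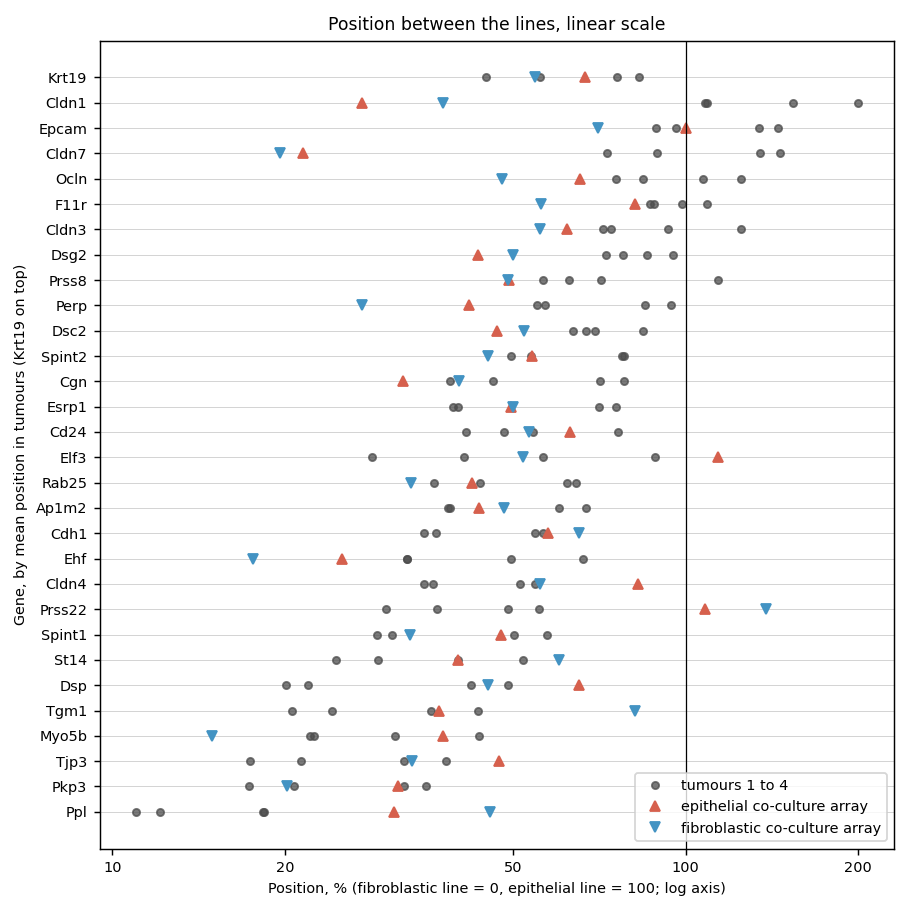
Position of the 4 tumours (grey circles) and both co-culture arrays (triangles) between the fibroblastic line (0%) and the epithelial line (100%, vertical line) on a log axis, for 29 genes ordered by their mean in the tumours and for Krt19. Cldn1, Epcam and Cldn7 are highest among the tumours and Ppl lowest, and in co-culture Cldn1 and Cldn7 lie left of all tumours while Prss22 lies right of them.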

How the data were processed

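RNA was hybridized to single-colour Affymetrix rat arrays. Expression was computed by the authors with RMA, per the submitters' processing notes, and the log2 scale of the deposited values was inferred from their range (2.94 to 14.69). No version of RMA was stated in the sources used. Each gene took 1 probe set naming that gene alone, the one highest on average across the 13 arrays, with symbols updated through RefSeq. Group means were fitted with limma 3.58.1 (R 4.3.3, eBayes, tested on simulated data) over 14217 genes, with Benjamini-Hochberg adjustment and calls at adjusted p under 0.05. Lines and co-culture arrays formed a fit of 9 arrays, tumours and lines one of 11, and tumours against co-culture one of 13. Python 3.11.15 with numpy 2.4.6, pandas 2.3.3 and matplotlib 3.10.9 made the summaries.

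The genes, lists and markers were chosen with earlier results of these data known. All 36 genes are named, and from each list up to 3 called genes with the largest differences in the commoner direction. Alternatives were other samples in the fit, quantile normalization, median centring, a filter on low values, other probe sets, robust moderation with a trend, array weights, stricter limits, arrays left out and the replicate number as a block. Leaving out fibroblastic arrays in pairs, and taking both co-culture arrays together, were added after the data were seen.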

Additional observations from a re-analysis of the deposited data

Results flagged for a closer look

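Among the 36 genes and the groups of 4 arrays (tumours and fibroblastic line), 72 sets of 4 values were examined for a single array far from the rest by Dixon's ratio, and 4 stood out, all in the fibroblastic line. Chance alone gives about 1 in 20. Cldn7 was at 3.98 on fibroblastic array 2, Dsc2 at 3.57 and Prss8 at 4.53 on the same array, and Ehf at 4.43 on array 4. All 4 values were the lowest of their gene in that line. They lie near the bottom of the array's scale, and each was far below the epithelial line's values either way.

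The responses to co-culture differed between the arrays labelled epithelial and fibroblastic, by limma's test of the difference, for 28 genes. Every one of the 28 had a lower response in the array labelled epithelial, and both arrays held RNA of both lines. These arrays correlated at 0.983, so by construction the values below largely restate the differences between the lines with the sign turned, and they are not read as separate responses of the lines. For the surface molecules the difference of the log2 responses was -8.86 for Cdh1, -7.93 for Epcam and -8.03 for Cd24. Among tight junction genes it was -4.46 for Cldn1, -5.3 for Cldn3, -5.52 for Cldn4, -6.34 for Ocln, -3.2 for Tjp3, -5.23 for F11r and -4.55 for Cgn. Among desmosome genes it was -6.84 for Dsg2, -6.97 for Dsc2, -2.82 for Pkp3, -7.07 for Ppl and -6.24 for Perp. The protease genes gave -4.71 (St14), -3.52 (Prss8), -7.24 (Prss22), -5.29 (Spint1) and -5.4 (Spint2), and the factors -3.05 (Ehf), -4.28 (Elf3) and -5.32 (Esrp1). The remaining values were -2.55 for Crb3, -4.8 for Rab25, -3.92 for Ap1m2, -2.58 for Myo5b and -9.01 for Tgm1. Tjp1, Jup, Pkp2, Cxadr, Cldn2, Cldn7, Dsp and Evpl were not called in this test.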

How the results depend on the processing

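Between the lines, 32 of the 34 higher calls held in every alternative (exceptions Cldn2 and Cxadr), with 33 to 34 calls leaving out 1 array. Of the 33 genes higher in tumours than in the fibroblastic line, 32 held throughout (exception Evpl, with tumour 2 alone). Against the epithelial line, 10 of the 20 lower calls held in every alternative other than tumour 2 alone, and 3 of them there too, where the tumour arm is a single array. Their number was 12 after quantile normalization, 13 at adjusted p under 0.01, 10 without tumours 1 and 4, 3 with tumour 2 alone and 14 to 22 leaving out 1 array. The higher calls there numbered 2 after quantile normalization, with the mean of probe sets, with the probe set of largest variance, under the replicate block and without tumours 1 and 4, and 1 to 2 leaving out 1 array. Genes lower in tumours than in the fibroblastic line numbered 0 with the mean of probe sets and 3 without fibroblastic arrays 2 and 4. The array labelled epithelial co-culture gave 4 lower genes in a fit of 13 arrays, 1 with only the groups compared, 0 at 0.01 and 2 to 6 leaving out 1 array. The array labelled fibroblastic co-culture gave 1 lower gene without fibroblastic arrays 2 and 4, and 26 to 28 higher leaving out 1 array. The difference of the responses gave 27 to 29. Both co-culture arrays against the epithelial line gave 2 lower genes at 0.01 and 2 to 11 leaving out 1 array. Tumours against both co-culture arrays gave 9 higher genes after quantile normalization, and 3 with tumour 2 alone, at 0.01 and at 2-fold or more. They gave 1 lower gene without tumours 1 and 4 and 1 with tumour 2 alone, and, leaving out 1 array, 3 to 7 higher and 1 to 4 lower. On the log2 scale the median positions were 77.4, 90.9, 88.8 and 79.7% in tumours 1 to 4 and 82.2 and 81.9% on the co-culture arrays, since that scale places a given mixture closer to the higher line.

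Signs turned only for differences that had not been called. Between tumours and epithelial line Cldn3 became 0.01 (quantile normalization), 0.12 (without tumours 1 and 4) and 0.33 (tumour 2 alone). In the same order Ocln became 0.25, 0.24 and 0.35, F11r 0.21, 0.07 and 0.14, and Crb3 0.25, 0.22 and 0.41. Ocln was 0.08 with the mean of probe sets. F11r was 0.02 under the replicate block. Perp was 0.05 with the probe set of largest variance, and Prss8 0.19 with tumour 2 alone. Leaving out 1 array gave -0.21 to 0.17 for Ocln, -0.66 to 0.04 for Perp, -0.38 to 0.03 for Crb3 and -0.20 to 0.05 for F11r. Between tumours and fibroblastic line Jup became 0.15 (quantile normalization) and 0.19 (without fibroblastic arrays 1 and 3), and Pkp2 -0.20 to 1.18 leaving out 1 array and -1.41 without fibroblastic arrays 2 and 4, then called. Between the lines Pkp2 became -0.47 without fibroblastic arrays 2 and 4. Other than for settings with fewer samples, the cause was not tested.

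Replicate numbers did not pair the arrays: deviations of same-numbered epithelial and fibroblastic arrays correlated at 0.14, 0.10 and -0.04. With the number as a replicate block, 33 genes were higher between the lines (Cxadr was not called), and 15 were lower and 2 higher between tumours and epithelial line. Counts in the other comparisons were 33 and 1 (tumours against fibroblastic line), 2, 26 and 28 (co-culture), 10 and, for tumours against co-culture, 5 and 3. Leaving out a lone co-culture array gave no value for its own comparison. The number of arrays limits the precision, and values in the lowest 25% of the scale cannot order genes.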
